A study of Mus musculus with 27 samples.

Results

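Resident alveolar macrophages were followed from day 3 to day 6 after lipopolysaccharide (LPS), the interval in which the early response of these cells subsided. The members are the 6 libraries labelled resident on those days, 3 per day, of 27 libraries in the series, and all genes that passed a filter on low counts, 13599 of 38124. The cells were washed from the lungs of C57B/6 mice aged 8 to 14 weeks, given LPS, a component of the bacterial outer membrane, by the intratracheal route (20 ng, in a PBS volume of 50 µL, per the labels). They were sorted as CD11c+CD11b-. The same gate on untreated mice gave the day 0 libraries, and further resident libraries came from days 9 and 12. Recruited macrophages, sorted as CD11c-CD11b+ from mice of the same strain and treatment, gave the second population on days 3 and 6. Each group had 3 libraries of polyadenylated RNA. The labels give no sex, and they do not say whether libraries of a group came from separate animals, so a p-value then covers the spread among libraries alone, which may be technical. The question was which of the differences present on day 3 were the first to be gone.

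Alveolar macrophages live on the air side of the lung, where they clear surfactant and inhaled particles and renew themselves by division in place. LPS is sensed by Toll-like receptor 4, whose signals act through NF-kB to raise cytokines and chemokines and through interferon regulatory factors to raise type I interferon and its target genes. Interferon gamma, made by lymphocytes, raises a partly different set that includes chemokines for T cells and the machinery for loading peptides on MHC class I. When inflammation resolves, these programmes are shut off, dead cells are taken up, and the tissue is repaired.

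The 6 libraries held 11707563 to 16728875 counts and 16432 to 17159 genes with a count. Values are CPM, counts scaled to the effective size of each library, differences are day 6 minus day 3 on the log2 scale from edgeR's quasi-likelihood test, and adjusted p-values are Benjamini-Hochberg values over all 13599 genes. Each SE is the size of the change divided by the square root of that test's F statistic. It approximates a standard error and can fail for changes near 0 or genes with hardly any counts. The label was checked against marker genes. The summed level of 8 resident macrophage markers (Siglecf, Marco, Fabp4, Pparg, Car4, Itgax, Chil3, Ear2) was 25646, 31949.8 and 26728 CPM on day 3 and 28605, 29803 and 29636 CPM on day 6, against 2578 to 3796 CPM in recruited cells of day 3, and none of the 8 was at 0. Most of that sum was Chil3, a chitinase-like protein. Markers of other cells were present at lower levels and moved between the days. The 20 markers of monocytes and recruited macrophages summed to 835, 701 and 963 CPM on day 3 and 531, 277 and 479 CPM on day 6, beside 136 to 148 CPM on day 0. In both days replicate 2 was the lowest of the 3. The 15 neutrophil markers summed to 997, 1489 and 2081 CPM and then 258, 244 and 299 CPM, a sum led by Lcn2, which macrophages also express, on day 3 and by Wfdc21 on day 6. Mpo and Elane, which encode neutrophil granule proteins, were at 0 on both days. Ly6g had 3, 0 and 1 counts on day 3, and Ly6g and Retnlg were at 0 on day 6. Other members were present on day 3, where S100a8, S100a9 and Retnlg had 2667, 2023 and 102 counts. They had 152, 6 and 2 on day 0 and 797, 96 and 0 on day 6. The 16 markers of T and NK cells summed to 17.5, 8.09 and 16.3 CPM and then 21.3, 6.84 and 6.83 CPM, with replicate 1 of day 6 apart from the other two. In these bulk libraries fewer cells of a type and less RNA per cell cannot be told apart.

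**Figure D1:**
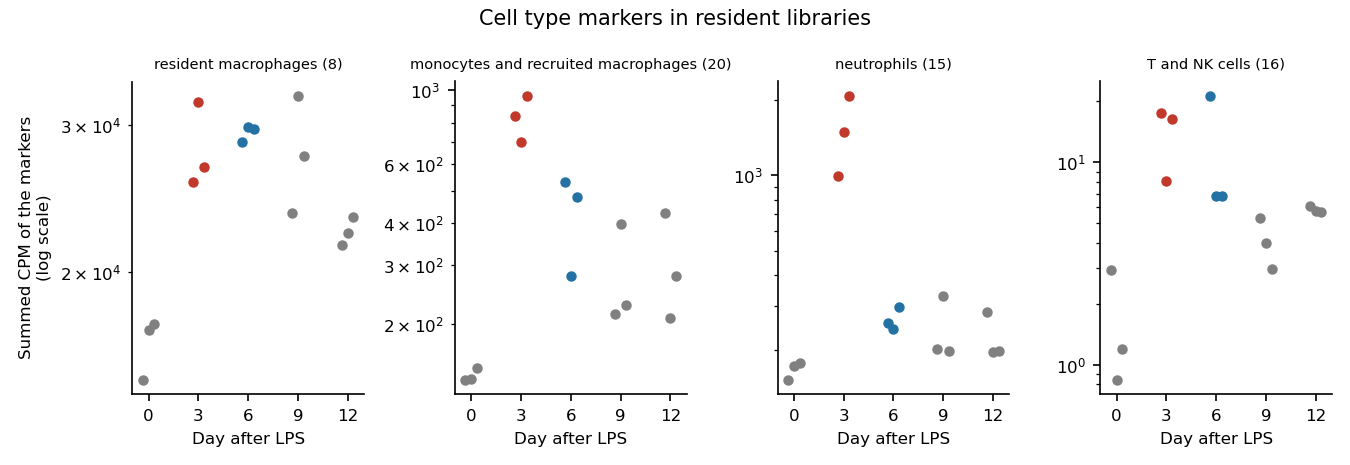
Summed CPM of marker genes (log axis, number of genes in parentheses) in each resident library by day after LPS; day 0 is untreated, red is day 3, blue is day 6, and other days are grey. Neutrophil markers summed to 997 to 2081 CPM on day 3 and 244 to 299 CPM on day 6.

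Between day 3 and day 6, 3329 of 13599 genes changed (24.5%). On day 6, 1810 genes (13.3%) were lower and 1519 (11.2%) were higher, and the larger changes were mostly falls: 779 genes fell at least 2-fold against 321 that rose as far. The median over all genes was 0.01 log2. The lists that fell most completely were those of cell division (37 of 38 mitosis genes and 33 of 34 DNA replication genes lower), of interferon gamma targets (15 of 18), of MHC class I and the immunoproteasome (11 of 14) and of cytokines and chemokines (18 of 25). No list rose in such a share, and the highest was 4 of 13 genes for MHC class II and costimulation. Leaving out replicate 3 of day 3 gave 1948 calls (734 higher), and leaving out replicate 2 of day 6 gave 2122 (908 higher). With the replicate number as a block within the 6 libraries, 5354 genes were called, 2506 higher and 2848 lower. That fit also called rises in lists with 0 here: 2 cytokine, 2 protein folding, 1 interferon gamma target and 1 MHC class I gene. Not all falls were of called day 3 differences. In 9 fits that left out 1 library, 1 to 3 of 38 mitosis and 7 to 20 of 34 DNA replication genes were higher on day 3 than day 0. So were 15 of 18 interferon gamma targets, 11 to 13 of 14 MHC class I genes and 15 to 18 of 25 cytokines and chemokines. Over all genes the share was 13.3% in the full fit, which called 3232 genes either way, while these 9 fits called 1895 to 3138. That share and the list counts are thus not from the same fits. A gene that was not called may still have changed: the mean level of the mitosis list on day 3 was above that of day 0, as given below.

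**Figure D2:**
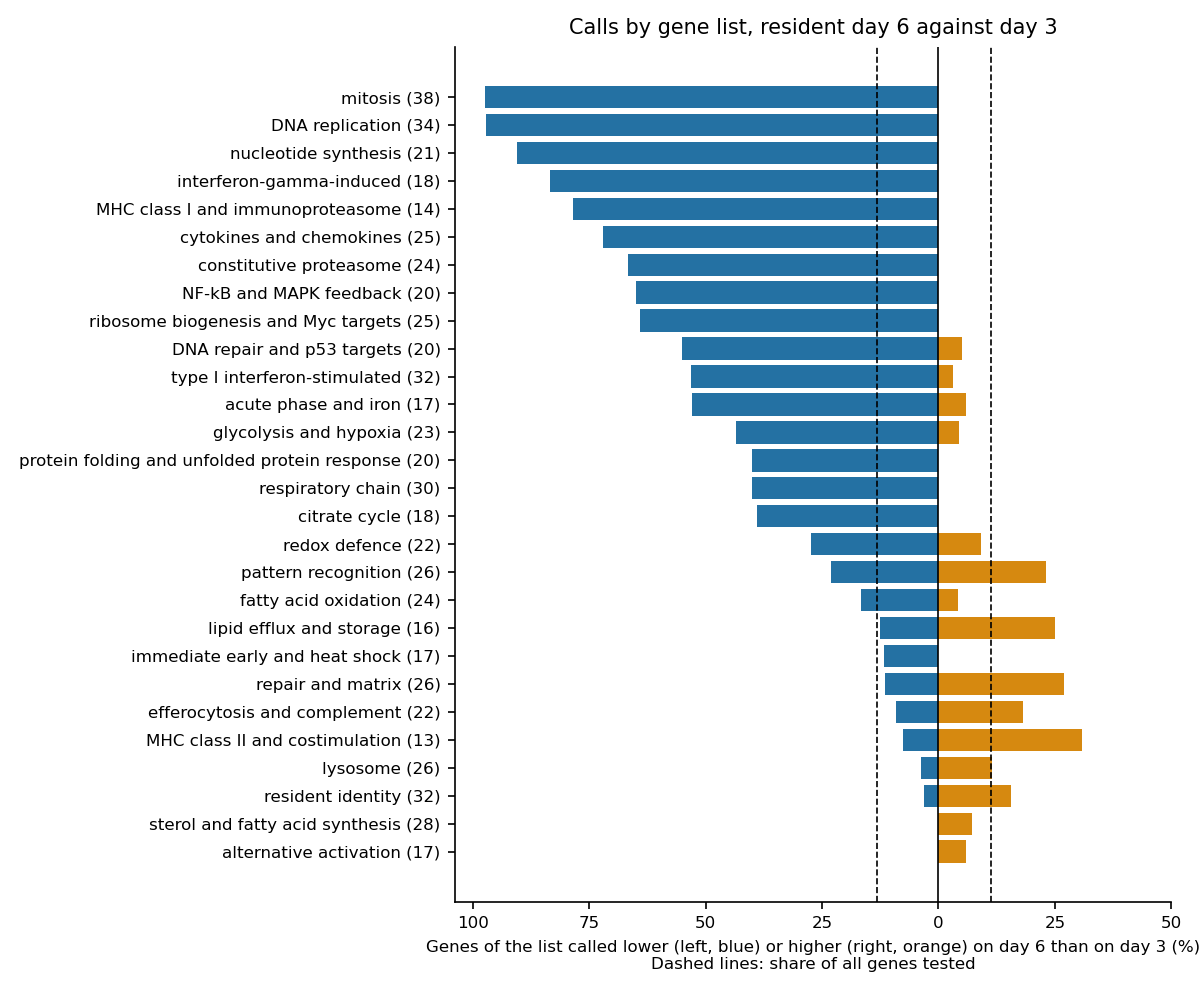
Share of the tested genes of each list (number in parentheses) that was called lower (blue, left) or higher (orange, right) on day 6 than on day 3. The dashed lines mark the shares over all genes tested, 13.3% lower and 11.2% higher.

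The days before and after place this interval. From day 0 to day 3, 3232 genes (23.8%) differed, 1802 higher (13.3%) and 1430 lower (10.5%). Day 6 differed from day 0 in 873 genes (6.42%), of which 513 (3.77%) were higher and 360 (2.65%) were lower. With library size alone as the scaling, 371 of 1001 were higher, so that split depends on the scaling. From day 6 to day 9, edgeR called 0 genes, with 537 at an unadjusted p under 0.05, and DESeq2 called 16. The libraries of day 6 and day 9 shared only part of their runs of column header numbers. Day 6 was in runs 2-9, 19-28 and 34-53, and day 9 in runs 2-9, 12-18 and 19-28. With the run as a term edgeR called 36. These comparisons share the day 3, day 6 or day 0 libraries with each other, so their values are set side by side and no overlap is drawn from them. In the mean log2 level of each list relative to day 0, cytokines and chemokines stood at 3.12 ± 0.09 on day 3 and 0.54 ± 0.15 on day 6 (SD over 3 libraries). Interferon gamma targets went from 3.00 ± 0.22 to 0.67 ± 0.28. DNA replication genes went from 0.66 ± 0.10 to -1.04 ± 0.23 and mitosis genes from 0.84 ± 0.11 to -1.23 ± 0.47, which is below the untreated level. The list of repair and matrix genes stood at 1.06 ± 0.14 on day 3 and 0.86 ± 0.29 on day 6.

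**Figure D3:**
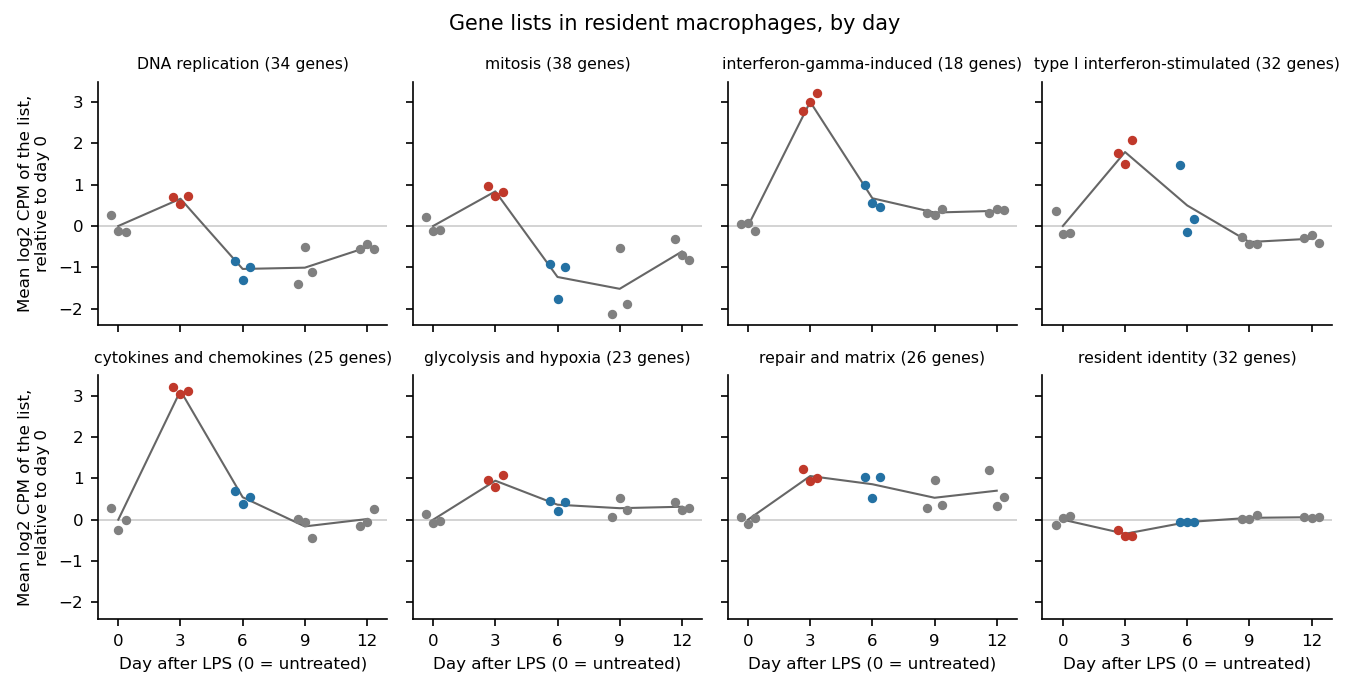
Mean log2 CPM of 8 gene lists in every resident library, relative to the mean of day 0, by day after LPS. Points are libraries (red day 3, blue day 6, grey other days) and the line joins the group means; cell division lists are below 0 on day 6 in all 3 libraries, and replicate 1 of day 6 stands at 1.47 in type I interferon-stimulated genes against -0.14 and 0.16 in the others.

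Genes of cell division fell, and part of them ended below the level of untreated cells. All but 1 of 34 DNA replication genes (E2f2), 19 of 21 nucleotide synthesis genes (not Dck and Phgdh) and all but 1 of 38 mitosis genes (Anln) were lower on day 6 than on day 3, with medians of -1.71, -1.05 and -2.13 log2 beside 0.01 over all genes. Mcm5, a subunit of the helicase that opens DNA for replication (chromosome 8, 75109569 to 75128439 in GRCm38), had 73.6, 54.6 and 52.5 CPM on day 0, 129.6, 120.1 and 135 CPM on day 3 and 30.1, 17.8 and 25.3 CPM on day 6. All day 6 libraries were below all libraries of both earlier days. The change was -2.40 ± 0.31 (SE, adjusted p = 1.8e-05), 5.26-fold lower, and the difference of day 6 from day 0 was -1.31 ± 0.30 (SE, adjusted p = 0.0108). Mki67, the proliferation marker coating mitotic chromosomes (chromosome 7, 135689784 to 135716361), had 533, 502 and 538 CPM on day 3 and 120.2, 77.7 and 114 CPM on day 6. Its groups did not overlap either, and it fell by 2.34 ± 0.41 (SE, adjusted p = 0.000389) on the log2 scale. Its difference from day 0 was -1.24 ± 0.40 (SE, adjusted p = 0.0688) and did not pass the test.

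The promoters of Mcm5 and Mki67 are shown because their lists carry different sequence motifs. Capitals mark matches, on either strand, to an E2F site (TTTGGCGC or TTTCCCGC), to the cell cycle homology region (CHR, TTTGAA) and to the CCAAT box (CCAAT), and these matches do not overlap each other. The 250 bases before the RefSeq start site lie at chr8:75109259-75109508 on the plus strand and chr7:135716380-135716629 on the minus strand (GRCm38.p6), printed 5′ to 3′ along the gene.
Mcm5: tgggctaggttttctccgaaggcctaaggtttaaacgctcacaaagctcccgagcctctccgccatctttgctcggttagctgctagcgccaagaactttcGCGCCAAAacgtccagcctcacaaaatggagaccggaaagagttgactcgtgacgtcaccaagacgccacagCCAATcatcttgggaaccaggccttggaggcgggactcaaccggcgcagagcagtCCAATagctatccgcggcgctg
Mki67: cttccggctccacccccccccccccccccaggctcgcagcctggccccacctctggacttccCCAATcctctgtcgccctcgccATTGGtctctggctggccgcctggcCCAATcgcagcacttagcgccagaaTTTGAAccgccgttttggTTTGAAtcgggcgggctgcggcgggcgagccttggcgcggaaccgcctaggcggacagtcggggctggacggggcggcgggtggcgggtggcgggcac
Mcm5 held an E2F match 149 to 142 bases before the start and 2 CCAAT boxes, and Mki67 held 2 CHR matches, the nearer at 98 to 93 bases, and 3 CCAAT boxes. In windows of 300 bases (250 before and 50 after the start), an E2F match was found in 10 of 28 DNA replication genes (35.7%) and 0 of 31 mitosis genes, and in 3.13% of all 9894 tested genes with a window. A CHR match was found in 23 of 31 mitosis genes (74.2%), 5 of 28 DNA replication genes (17.9%) and 12.0% of all. CCAAT boxes were in 74.2% of the mitosis, 64.3% of the replication and 38.9% of all windows. Over all genes called lower, the shares were 5.2% for E2F and 16.2% for CHR, and over those called higher 1.56% and 10.4%. These matches describe the letters and say nothing of what binds there.

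Among the replication genes, Uhrf1, which keeps DNA methylation after replication, went from 118, 99.9 and 116 CPM to 20.8, 11.7 and 15 CPM, a change of -2.81 ± 0.51 (SE, adjusted p = 0.000562). Gins1, another part of the replicative helicase, went from 15.4, 12.8 and 15 CPM to 4.17, 1.96 and 2.45 CPM (log2 change -2.34 ± 0.33 SE, adjusted p = 2.71e-05). Neither had overlapping libraries. Of the nucleotide genes, Rrm2, the regulated subunit of ribonucleotide reductase, changed by -2.51 ± 0.67 (SE, adjusted p = 0.00985), a call lost without replicate 2 of day 6 (adjusted p = 0.0568). Psat1, a serine synthesis enzyme, changed by -2.05 ± 0.31 (SE, adjusted p = 8.63e-05). Mitotic kinases fell as far: Melk by 2.73, Ttk by 2.64 and Plk1 by 2.56 on the log2 scale (adjusted p = 0.000871, 0.00164 and 0.00168). Ccnb1, the mitotic cyclin, went from 30.5, 28.8 and 28.4 CPM to 8.28, 3.65 and 7.74 CPM (log2 change -2.16 ± 0.65 SE, adjusted p = 0.0194), and its call was lost without replicate 3 of day 3 (adjusted p = 0.0505) or replicate 2 of day 6 (adjusted p = 0.0958).

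In the list of DNA repair and p53 target genes, 11 of 20 fell and Trp53inp1 rose, while 3 rose with the block within the 6 libraries. The falls with the largest size were in repair and checkpoint genes: Exo1, a DNA exonuclease, went from 13.5, 11.8 and 13.3 CPM to 2.64, 1.37 and 1.55 CPM (log2 change -2.80 ± 0.42 SE, adjusted p = 5.65e-05), and Chek1, the replication checkpoint kinase, changed by -2.42 ± 0.44 (SE, adjusted p = 0.000392). Cdkn1a, the p53-induced inhibitor of cyclin-dependent kinases, did not pass the test, at 116, 119 and 114 CPM on day 3 and 139.6, 117 and 134 CPM on day 6 (log2 change 0.16 ± 0.33 SE, adjusted p = 0.772). On day 6, 21 of 34 replication genes, 6 of 21 nucleotide genes and 7 of 38 mitosis genes were below day 0, and 0 were above. Without replicate 2 of day 6 these counts were 13, 4 and 3, and without replicate 1 of day 0 the replication count was 12 and the mitosis count, 5 at most without any 1 library, was 2. The mitosis count of 37 was 24 without replicate 2 of day 6, and the replication count was 32 or more without any single library.

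Targets of interferon gamma fell furthest among the interferon lists. Of 18 tested, 15 were lower on day 6 than on day 3 and 0 higher (median -2.24 log2), and 15 were lower in every fit that left out a library. Cxcl10, a chemokine for T cells (chromosome 5, 92346638 to 92348889), had 9.58, 6.59 and 5.47 CPM on day 0, 91.8, 144 and 177 CPM on day 3 and 2.5, 1.5 and 1.1 CPM on day 6. Day 6 was thus below all libraries of both earlier days, with a change of -6.34 ± 0.44 (SE, adjusted p = 1.25e-08), 81.1-fold, from day 3 and of -2.09 ± 0.43 (SE, adjusted p = 0.00567) from day 0. Cxcl9, which acts on the same receptor, went from 142, 164 and 289 CPM to 12.8, 6.91 and 10.1 CPM (log2 change -4.32 ± 0.55 SE, adjusted p = 2.08e-05) with all 3 above its 4.5, 3.6 and 2.01 CPM of day 0, a difference that did not pass the test (adjusted p = 0.123). Cxcl11, the last of the 3 ligands, had 52 counts in all on day 3 and 0 on day 6, so its level was at least 18.2-fold higher on day 3 (floor of 3 counts over the group, counting error only). The members that did not pass were Cd274, Ciita and Irf8.

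Type I interferon-stimulated genes were spread more widely on day 6, where replicate 1 was the highest. Of 32 tested, 17 were lower on day 6 and 1, Ifi27l2a, was higher (median -1.04). Isg15, a ubiquitin-like protein (chromosome 4, 156199424 to 156200818), had 44.1, 35.3 and 65.5 CPM on day 3 and 13.2, 2.28 and 5.16 CPM on day 6 (log2 change -2.82 ± 0.50 SE, adjusted p = 0.000407). Rsad2, the antiviral enzyme viperin, had 43.1, 40.0 and 51.2 CPM and then 9.32, 1.96 and 2.06 CPM (log2 change -3.34 ± 0.53 SE, adjusted p = 0.000174), and Oasl1, of the oligoadenylate synthetase family, had 20.8, 17.5 and 30.7 CPM and then 8.07, 0.782 and 1.35 CPM (log2 change -2.78 ± 0.67 SE, adjusted p = 0.00495, and adjusted p = 0.0577 in a fit of the 6 libraries alone, or 0.0853 there with the replicate number as a block). In each of these, replicate 1 of day 6 was the highest of its group and still below all day 3 libraries. Irf7, the factor that amplifies interferon production, had 106, 61.4 and 138 CPM on day 3 and 105, 15.1 and 26 CPM on day 6, with replicate 1 inside the day 3 range, and did not pass the test (log2 change -1.06 ± 0.56 SE, adjusted p = 0.179). Ifit3, an RNA-binding antiviral protein, had 19, 17.4 and 27.8 CPM and 14.2, 2.22 and 4.58 CPM (log2 change -1.62 ± 0.46 SE, adjusted p = 0.0137). Its call was lost without replicate 3 of day 3 (adjusted p = 0.0726), replicate 2 (adjusted p = 0.0656) or replicate 3 of day 6 (adjusted p = 0.068), in a fit of the 6 libraries alone (adjusted p = 0.124) and there with the block (adjusted p = 0.122).

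Without replicate 1 of day 6, 25 of the 32 genes were lower and 0 higher, Isg15 changed by -3.71 (adjusted p = 0.000109), Rsad2 by -4.48 (adjusted p = 2.81e-05), Oasl1 by -4.43 (adjusted p = 0.000453), Ifit3 by -2.66 (adjusted p = 0.00026) and Irf7 by -2.32 (adjusted p = 0.00465). In a fit of the 6 libraries alone 9 were lower, and 10 with the replicate number as a block, and the rise of Ifi27l2a was lost in both, as it was without replicate 2 or 3 of day 3 or replicate 1 of day 6. The same library had the highest sum of T and NK cell markers on day 6 (21.3 CPM against 6.84 and 6.83). It also led the sum of monocyte markers (531 CPM against 277 and 479), a lead that rests on Apoe, at 216 CPM there against 64.1 and 122. The part of these cells in its level was not tested. On day 6, 7 of 32 were above day 0 (Ifi27l2a, Ifih1, Irf9, Oas1a, Oas2, Oasl2, Zbp1), but without replicate 1 of day 6 only 2 were above and 1 was below, and without replicate 2 or 3 of day 0 only 4 were above.

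The promoters of Cxcl10 and Isg15 stand for the interferon lists, with capitals for the interferon-stimulated response element (ISRE, searched on both strands as GAAA, any 2 bases and GAAA) and the CCAAT box. The 250 bases before the start are chr5:92348890-92349139 on the minus strand and chr4:156200819-156201068 on the minus strand (RefSeq, GRCm38.p6).
Cxcl10: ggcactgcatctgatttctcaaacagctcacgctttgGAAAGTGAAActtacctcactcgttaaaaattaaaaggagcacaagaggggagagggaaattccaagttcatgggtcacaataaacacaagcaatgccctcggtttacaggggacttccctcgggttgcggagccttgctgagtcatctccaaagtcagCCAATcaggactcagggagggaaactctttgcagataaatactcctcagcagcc
Isg15: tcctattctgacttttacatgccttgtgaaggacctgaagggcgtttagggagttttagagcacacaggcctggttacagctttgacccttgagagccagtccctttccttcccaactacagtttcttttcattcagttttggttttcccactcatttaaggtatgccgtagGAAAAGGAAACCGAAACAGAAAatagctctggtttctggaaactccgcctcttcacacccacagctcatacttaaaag
Cxcl10 held 1 ISRE match 213 to 204 bases before the start. Isg15 held 3 that overlap in a single run 78 to 57 bases before it. In the windows of 300 bases, a match was found in 8 of 12 interferon gamma targets (66.7%), 12 of 22 type I genes (54.5%), 3.23% of all tested genes, 4.99% of those called lower and 2.94% of those called higher. Of 18 cytokine and chemokine promoters, 0 held it.

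Antigen presentation on MHC class I moved with the interferon genes. Of 14 genes, 11 were lower on day 6 and 0 higher (median -0.76). Psme2, a subunit of the proteasome activator, went from 113, 111 and 150.4 CPM to 44.1, 34.6 and 45.7 CPM (log2 change -1.59 ± 0.15 SE, adjusted p = 1.89e-07), and its day 6 libraries lay around the 44.5, 40.0 and 36.1 CPM of day 0. Tap1, the peptide transporter, went from 262, 235 and 299 CPM to 157, 97.3 and 95.7 CPM (log2 change -1.19 ± 0.17 SE, adjusted p = 3.23e-05) and was still above day 0 by 1.15 ± 0.17 (SE, adjusted p = 0.000215). Tapbp, which tethers it to MHC class I, changed by -1.0 ± 0.13 (SE, adjusted p = 1.13e-05). B2m, H2-D1 and H2-K1, the parts of the surface molecule itself, were the 3 that did not change by the test. They were among 6 of the 14 genes above day 0 on day 6, a count of 2 without replicate 1 of day 6 or replicate 3 of day 0 and of 3 without replicate 2 of day 0, with H2-K1, which shares reads with its close relatives, at 968, 727 and 698 CPM on day 0, 2109.7, 1690.1 and 2099.6 CPM on day 3 and 2616, 1719 and 1778 CPM on day 6. Of 13 MHC class II and costimulation genes, 4 rose (Cd74, Cd86, Ctss and H2-DMa) and Cd40 fell, by 3.37 on the log2 scale (adjusted p = 0.000399). Cd86, a ligand of CD28, went from 6.83, 3.25 and 5.27 CPM to 11.6, 8.41 and 9.61 CPM (log2 change 0.93 ± 0.28 SE, adjusted p = 0.018), beside 13.4, 10.6 and 6.29 CPM on day 0. Its call was lost without replicate 2 (adjusted p = 0.0877) or 3 of day 3 (adjusted p = 0.0575) or replicate 1 of day 6 (adjusted p = 0.077). H2-Ab1, a class II chain, did not pass (log2 change 0.35 ± 0.40 SE, adjusted p = 0.577), though with the block within the 6 libraries it did (adjusted p = 0.0122). The count of 4 was 1 without replicate 2 or 3 of day 3, 2 without replicate 1 of day 6, and 8 with the block within 6 libraries, where 2 fell.

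Among cytokines and chemokines 18 of 25 genes fell and 0 rose, with the largest median of any list, -3.40 log2 (-3.32 with Il10, which had no count on day 6, set at its bound). Nos2, the inducible nitric oxide synthase counted with this list (chromosome 11, 78920787 to 78960254), had 0 CPM in all 3 libraries of day 0, 115, 55.6 and 80.1 CPM on day 3 and 0.487, 0.0652 and 0.193 CPM on day 6. The groups were far apart, and the change was -8.37 ± 0.58 (SE, adjusted p = 3.1e-08). Ptgs2, the inducible cyclooxygenase, went from 7.48, 10.5 and 5.51 CPM to 0.139, 0.196 and 0.129 CPM (log2 change -5.57 ± 1.20 SE, adjusted p = 0.00264). Ccl2, the chemokine that draws monocytes, went from 7.68, 5.67 and 9.06 CPM to 0.0696, 0.391 and 0.258 CPM (log2 change -4.90 ± 0.90 SE, adjusted p = 0.000609), overlapping its 0.193, 0.383 and 0.503 CPM of day 0. Tnf, the tumour necrosis factor, had 36.7, 26.7 and 33.1 CPM on day 0, 76.2, 82.2 and 109 CPM on day 3 and 10.8, 12.3 and 10.5 CPM on day 6. It fell by 2.99 ± 0.66 (SE, adjusted p = 0.00274) on the log2 scale from day 3. The libraries of day 6 lay below those of day 0, a difference of -1.52 ± 0.64 (SE, adjusted p = 0.187) that did not pass.

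Il1b, the interleukin-1 beta gene, changed less by size. It had 8.23, 16.2 and 10.8 CPM on day 0, 227, 246 and 251 CPM on day 3 and 70.6, 58 and 177 CPM on day 6. The groups did not overlap, but the fall did not pass the test (log2 change -1.24 ± 0.51 SE, adjusted p = 0.0817), and day 6 was still above day 0 by 3.12 ± 0.56 (SE, adjusted p = 0.0018). Without replicate 3 of day 6, which was the highest, the change was -1.92 (adjusted p = 0.0209). Ccl9, Cxcl3 and Cxcl16 were the other members still above day 0 on day 6. The 7 that did not pass between day 3 and day 6 were Ccl22, Ccl6, Cxcl16, Il10, Il12b, Il18 and Il1b. The count of 18 was 12 without replicate 2 of day 6.

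Inhibitors and feedback genes of the NF-kB and MAP kinase pathways fell with the cytokines, 13 of 20 lower and 0 higher (median -1.24). Tnfaip3, the deubiquitinase A20, had 224, 702 and 553 CPM on day 3 and 76.8, 106 and 109.9 CPM on day 6 (log2 change -2.34 ± 0.55 SE, adjusted p = 0.00437), beside 93.1, 75.2 and 89.9 CPM on day 0. Traf1, an adaptor of tumour necrosis factor receptors, changed by -2.45 ± 0.51 (SE, adjusted p = 0.00173) and was still above day 0 by 2.68 ± 0.76 (SE, adjusted p = 0.0375). Nfkbiz, an inducible nuclear IkB protein, had 31.2, 103 and 66.1 CPM and then 8.21, 11.4 and 10.8 CPM (log2 change -2.71 ± 0.77 SE, adjusted p = 0.0145), a call lost without replicate 2 of day 3 (adjusted p = 0.055) or replicate 1 of day 6 (adjusted p = 0.0544). Of 17 immediate early and heat shock genes 2 fell, Egr3 and Ier3, a share near the 13.3% over all genes. Egr3 had 51 counts on day 3 and 1 on day 6, a ratio of 53.5-fold (95% counting interval 9.18 to 2154), and Ier3 changed by -1.98 ± 0.57 (SE, adjusted p = 0.0166), lost without replicate 1 (adjusted p = 0.0686) or replicate 2 of day 6 (adjusted p = 0.0582). Without either of these libraries 1 of the 17 fell, and within the 6 libraries with the block 9 fell and 2 rose.

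A few transcripts of lymphocytes were found on day 3 and not on day 6. They were chosen after their values were seen. Il22 had 139 counts over the 3 day 3 libraries and 0 on day 6, at least 48.6-fold higher on day 3, with 5.78, 2.17 and 1.48 CPM. Il17a had 54 counts against 0 (at least 18.9-fold higher), Gzma, a granzyme of cytotoxic cells, 45 against 0 (at least 15.7-fold), and Ifng 14 against 0 (at least 4.9-fold). Their p-values rest on the values they were chosen by and are not given. Gzma was the single T and NK cell marker of 13 tested that fell. Receptor genes of T cells were not called between the days, and 7 of the 13 were above day 0 on day 6, among them Cd8a with 0 CPM in all 3 libraries on day 0, 0.46, 0.501 and 0.414 CPM on day 3 and 2.16, 0.326 and 0.774 CPM on day 6.

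Acute phase and antimicrobial genes fell from high levels and were not all back at the untreated level. Of 17 genes of the acute phase and iron list, 9 fell and Slc40a1, the iron exporter ferroportin, rose (median -1.02), a rise lost without replicate 3 of day 3 or any 1 library of day 6. With the block within the 6 libraries 2 genes of the list rose. Lcn2, which binds bacterial siderophores (chromosome 2, 32384633 to 32388252), had 0.193, 0.46 and 0.0629 CPM on day 0, 582, 1140.3 and 1646 CPM on day 3 and 24.1, 11.3 and 33 CPM on day 6. Its 3 groups did not overlap, with day 6 between the other two. It fell by 5.62 ± 0.81 (SE, adjusted p = 6.5e-05) on the log2 scale, 49.2-fold, and was still above day 0 by 6.6 ± 1.12 (SE, adjusted p = 0.00127). Saa3, serum amyloid A3, went from 230.5, 105 and 315 CPM to 15.4, 3.85 and 11.3 CPM (log2 change -4.41 ± 1.08 SE, adjusted p = 0.00585), against 0.45, 0.0766 and 0.126 CPM on day 0 (log2 change 5.46 ± 1.57 SE, adjusted p = 0.0421). Cp, the copper ferroxidase ceruloplasmin, went from 8.34, 22 and 24.7 CPM to 1.11, 0.782 and 0.387 CPM (log2 change -4.59 ± 0.48 SE, adjusted p = 9.05e-07). On day 6, C3, Cfb, Lcn2 and Saa3 were above day 0, and Hmox1, Mt1, Slc11a1, Slc40a1 and Tfrc, which handle iron, heme and metals, were below it.

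The most lowered genes of the whole table, among those with at least 20 CPM on day 3, included others of this kind. Chil1, a secreted chitinase-like protein, had 1031 counts on day 3 and 3 on day 6, a ratio of 361-fold (95% counting interval 123 to 1751). Serpina3f and Serpina3g, protease inhibitors of a cluster of near copies whose reads may be shared, went from 34.8, 81.8 and 133 CPM to 1.25, 0.913 and 0.387 CPM (log2 change -6.61 ± 0.58 SE, adjusted p = 4.59e-07) and from 127, 283 and 496 CPM to 7.58, 7.43 and 4.38 CPM (log2 change -5.54 ± 0.49 SE, adjusted p = 2.7e-07). Both stayed above day 0, by at least 11.6-fold for Serpina3f, which had no count there, and by 5.50 ± 0.83 (SE, adjusted p = 0.000425) for Serpina3g. Mmp9, gelatinase B, went from 32.4, 22 and 16.2 CPM to 0.557, 0 and 0.967 CPM (log2 change -5.51 ± 1.02 SE, adjusted p = 0.000633). Lcn2 and Mmp9 are also neutrophil genes. The neutrophil marker Retnlg had 102 counts on day 3 and 0 on day 6 (at least 35.7-fold higher on day 3), and S100a9, a neutrophil and monocyte alarmin, had 43.4, 52.4 and 43.5 CPM and then 0.835, 0.13 and 5.29 CPM (log2 change -4.46 ± 1.34 SE, adjusted p = 0.0217). The part of neutrophil RNA in the fall of Lcn2 and Mmp9 was not tested.

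**Figure D4:**
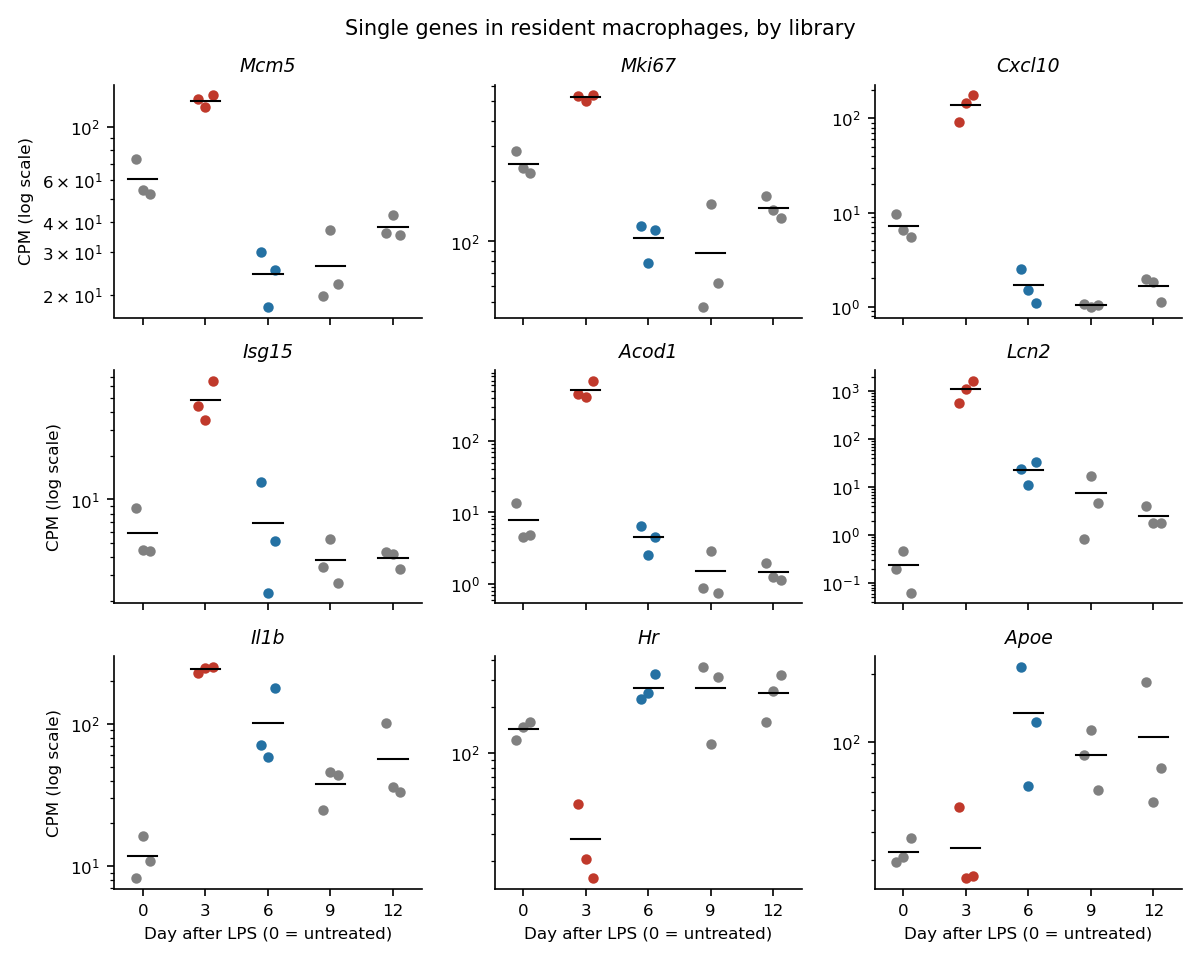
CPM of 9 genes in every resident library (log axes) by day after LPS; points are libraries (red day 3, blue day 6, grey other days) and bars are group means. Mcm5, Cxcl10, Acod1 and Lcn2 have no overlap between day 3 and day 6, Il1b on day 6 spans 58 to 177 CPM, and Hr and Apoe are higher on day 6.

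Metabolic genes changed by less, with Acod1 as an exception. Acod1, which makes the antimicrobial metabolite itaconate from a citrate cycle intermediate (chromosome 14, 103046977 to 103056573), had 13.8, 4.52 and 4.91 CPM on day 0, 461, 415 and 694 CPM on day 3 and 6.4, 2.54 and 4.58 CPM on day 6. Day 6 overlapped day 0, and the change from day 3 was -6.86 ± 0.75 (SE, adjusted p = 3.75e-06), 116-fold. In all, 7 of 18 citrate cycle genes fell, and the other 6 changed by -0.35 (Idh2) to -0.89 (Idh3a) log2. Idh3a is an isocitrate dehydrogenase subunit (log2 change -0.89 ± 0.17 SE, adjusted p = 0.000765). Of 23 glycolysis and hypoxia genes, 10 fell and Pfkfb4 rose (median -0.55). Pfkl, a phosphofructokinase, went from 189, 186 and 246 CPM to 84.1, 62.9 and 69 CPM (log2 change -1.52 ± 0.29 SE, adjusted p = 0.000662), and Hk3, a hexokinase of myeloid cells, from 175, 136 and 189 CPM to 65.3, 58.9 and 52 CPM (log2 change -1.50 ± 0.23 SE, adjusted p = 6.71e-05). Hk1, Pfkfb3 and Slc2a1 were above day 0 on day 6. The glycolysis count was 6 without replicate 3 of day 3, 5 without replicate 2 of day 6 and 16 with the block within the 6 libraries.

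Acsl1, which activates long fatty acids and was counted with fatty acid oxidation, fell from 473, 613 and 928 CPM to 168, 166 and 161 CPM (log2 change -2.02 ± 0.19 SE, adjusted p = 1.89e-07), still above all 3 libraries of day 0 (121, 131 and 128 CPM). It was the member that changed most. The other 3 that fell included Acadl, a long chain dehydrogenase (log2 change -0.78 ± 0.14 SE, adjusted p = 0.000308), and Pex11a, a peroxisome membrane protein (log2 change -0.95 ± 0.25 SE, adjusted p = 0.00774, lost without replicate 3 of day 3 at adjusted p = 0.0571), and Acadm rose. Without replicate 3 of day 3, 2 of this list fell and 0 rose, and with the block within 6 libraries 7 fell and 3 rose. With the block over 27 libraries 2 rose. Cpt1a, the gate to mitochondrial oxidation, had 505, 534 and 461 CPM and 601, 656 and 590.3 CPM and did not pass (log2 change 0.30 ± 0.12 SE, adjusted p = 0.0767), though with the replicate block it did, over 27 libraries (adjusted p = 0.047) and within 6 (adjusted p = 0.00622). Respiratory chain genes fell in 12 of 30 (median -0.27), a count of 6 without replicate 3 of day 3, 4 without replicate 2 of day 6 and 20 with the block within 6 libraries. Cyc1, cytochrome c1, at -0.53 ± 0.14 (SE, adjusted p = 0.00714), and Atp5o, an ATP synthase subunit, at -0.54 ± 0.11 (SE, adjusted p = 0.00114), show the size. Of 28 sterol and fatty acid synthesis genes, Acly and Elovl6 rose and 0 fell, both shares below the 11.2% higher and 13.3% lower over all genes. Elovl6, a fatty acid elongase, went from 5.84, 4.42 and 7.76 CPM to 9.95, 15.3 and 16.1 CPM (log2 change 1.19 ± 0.29 SE, adjusted p = 0.00498). The rise of Acly, which makes acetyl-CoA from citrate, was small (log2 change 0.40 ± 0.14 SE, adjusted p = 0.0351) and was lost in each fit that left out 1 library except replicate 1 of day 6 (adjusted p 0.0784 to 0.14). With the block within 6 libraries 10 of the 28 rose and 3 fell.

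Genes of protein production and turnover fell by less than 2-fold in most cases. Ribosome biogenesis and Myc target genes fell in 16 of 25 (median -0.51), with Srm, spermidine synthase, from 57.7, 54.3 and 54.8 CPM to 24.2, 26.4 and 27.4 CPM (log2 change -1.10 ± 0.17 SE, adjusted p = 6.41e-05) and Gnl3, nucleostemin, from 32.3, 37.7 and 39.7 CPM to 20.1, 20.4 and 19.6 CPM (log2 change -0.87 ± 0.14 SE, adjusted p = 9.16e-05). Gnl3 was also below day 0 on day 6, with a difference of -0.66 ± 0.14 (SE, adjusted p = 0.00474). Constitutive proteasome genes fell in 16 of 24 (median -0.46), a count of 4 without replicate 3 of day 3 and of 8 without replicate 2 of day 6. Psma5, a core particle subunit, changed by -0.86 ± 0.23 (SE, adjusted p = 0.00891) and lost its call without replicate 3 of day 3 (adjusted p = 0.0737). Protein folding genes fell in 8 of 20, 4 without replicate 3 of day 3 or replicate 1 of day 6, 5 without replicate 2 of day 6 and 13 with the block within the 6 libraries. Asns, asparagine synthetase, a target of the amino acid stress response, went from 12.1, 14.8 and 10.9 CPM to 3.2, 2.8 and 4.38 CPM (log2 change -1.86 ± 0.39 SE, adjusted p = 0.00148), and Creld2, an endoplasmic reticulum stress gene, changed by -0.74 ± 0.16 (SE, adjusted p = 0.00188). Of 22 redox genes, 6 fell (12 with the block within 6 libraries), led by Sod2, the mitochondrial superoxide dismutase, from 399.6, 405 and 565 CPM to 102, 89 and 102 CPM (log2 change -2.23 ± 0.25 SE, adjusted p = 1.63e-06). Slc7a11, the cystine importer, changed by -1.32 ± 0.39 (SE, adjusted p = 0.0186), a call lost without replicate 3 of day 3 (adjusted p = 0.12) or replicate 2 of day 6 (adjusted p = 0.0921) and within the 15 resident libraries (adjusted p = 0.063). Prdx6, a peroxiredoxin, changed by -0.87 ± 0.16 (SE, adjusted p = 0.00036). In the same list 2 genes rose (1 without replicate 1 of day 6), among them Ncf1, a subunit of the phagocyte oxidase.

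Several of the genes that rose most had day 3 libraries all below the untreated ones. Hr, a nuclear corepressor with histone demethylase activity (chromosome 14, 70552212 to 70573548), had 121, 148 and 158 CPM on day 0, 46.6, 20.6 and 15.3 CPM on day 3 and 225, 246 and 325 CPM on day 6. It was below all day 0 libraries on day 3 and above them all on day 6, and it rose 9.64-fold from day 3 (log2 change 3.27 ± 0.59 SE, adjusted p = 0.000552). Its difference of day 6 from day 0 did not pass the test (0.90 ± 0.54 SE, adjusted p = 0.402). Neat1, the noncoding RNA that builds paraspeckles (chromosome 19, 5824708 to 5845478), went from 953, 1044 and 1049 CPM on day 0 to 430.2, 218 and 266 CPM on day 3 and 1286, 936 and 1239.9 CPM on day 6 (log2 change 1.92 ± 0.31 SE, adjusted p = 0.000146). Ppm1j, a protein phosphatase, had 15.2, 31.7 and 28 CPM, 8.34, 6.59 and 8.82 CPM and 34.9, 35.5 and 36.6 CPM on the same days (log2 change 2.17 ± 0.33 SE, adjusted p = 7.7e-05). Gabbr1, a subunit of the GABA B receptor, rose by 2.53 ± 0.68 (SE, adjusted p = 0.0109), a call lost without replicate 3 of day 3 (adjusted p = 0.0681). Dnah11, a dynein heavy chain, rose by 1.88 ± 0.51 (SE, adjusted p = 0.0101). Coro6, a coronin, rose by 2.00 ± 0.72 (SE, adjusted p = 0.0475) and lost its call without any 1 of the 6 libraries and with the block over 27 libraries (adjusted p = 0.0576).

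Apoe and Gprc5c rose above the untreated level. Apoe, a lipid carrier that macrophages secrete (chromosome 7, 19696109 to 19699188), had 29.6, 31 and 37.8 CPM on day 0, 51.9, 24.9 and 25.6 CPM on day 3 and 216, 64.2 and 123 CPM on day 6. The change from day 3 was 1.98 ± 0.56 (SE, adjusted p = 0.014) and that from day 0 2.03 ± 0.56 (SE, adjusted p = 0.0332). Apoe is also 1 of the 20 markers of monocytes and recruited macrophages, and it was highest in replicate 1 on both days. The sum of these markers holds Apoe itself, so the lead of replicate 1 in that sum on day 6 says nothing separate about Apoe. The call was lost without replicate 1 of day 6, where the change was 1.44 (adjusted p = 0.0881), and without replicate 2 (adjusted p = 0.0572) or 3 of day 3 (adjusted p = 0.0735), and in a fit of the 6 libraries alone (adjusted p = 0.0625). Gprc5c, an orphan receptor, went from 18.8, 14.3 and 10.2 CPM to 53.4, 65.8 and 48 CPM (log2 change 1.95 ± 0.42 SE, adjusted p = 0.00224), beside 15, 21.3 and 21 CPM on day 0 (log2 change 1.55 ± 0.42 SE, adjusted p = 0.0288). In the list of lipid efflux and storage, 4 of 16 rose (Abcg1, Apoe, Nceh1, Npc1) and 2 fell, beside 11.2% higher and 13.3% lower over all genes. These counts depended on single libraries: 1 rose without replicate 2 or 3 of day 3 and 2 without any 1 library of day 6, while 0 fell without replicate 3 of day 3 or of day 6 and 1 without replicate 1 of day 3 or replicate 1 or 2 of day 6. With the block within 6 libraries 7 rose and 5 fell. Abcg1, a cholesterol exporter, rose by 0.72 ± 0.25 (SE, adjusted p = 0.0359) and kept its call without replicate 1 of day 3 alone among these fits. Nceh1, a cholesterol ester hydrolase, went from 413, 439 and 358 CPM to 644, 692 and 687 CPM (log2 change 0.74 ± 0.13 SE, adjusted p = 0.000347), overlapping its 619, 738 and 781 CPM of day 0. Ch25h, which makes 25-hydroxycholesterol, fell (log2 change -1.24 ± 0.39 SE, adjusted p = 0.0259), and its call was lost without any 1 of 5 libraries, all but replicate 2 of day 3.

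In the fit of all 27 libraries 11.2% of all genes rose and 13.3% fell. Few genes of resident identity were called there, and more in fits of fewer groups. Of 32, 5 rose (Abcg1, Bhlhe40, Csf2ra, Itgax, Mertk) and 1 fell (median 0.39), and the mean level of the list stood at -0.34 ± 0.08 on day 3 and -0.06 ± 0.01 on day 6 relative to day 0. Mertk, a receptor for dying cells, had 468, 565 and 573 CPM on day 0, 363, 399 and 347 CPM on day 3 and 625, 755 and 643 CPM on day 6, with no overlap between day 3 and either other day (log2 change 0.87 ± 0.16 SE, adjusted p = 0.000341). Siglecf, the sialic acid receptor used to recognise these cells, had 249, 191 and 139 CPM and then 473, 529 and 499 CPM. These groups did not overlap, but the rise did not pass the test (log2 change 1.38 ± 0.57 SE, adjusted p = 0.0874). It did in a fit of the 6 libraries alone (adjusted p = 0.0014), there with the block (adjusted p = 0.00564) and within the 15 resident libraries (adjusted p = 0.00125). Marco, a scavenger receptor, went the other way, from 847, 1212 and 1679.7 CPM to 242, 254 and 377 CPM, again without overlap and without passing (log2 change -2.10 ± 0.87 SE, adjusted p = 0.0876, and adjusted p = 0.00423 in the 6 libraries, or 3.38e-06 with the block). Within the 15 resident libraries Marco passed too (adjusted p = 0.0294). Pparg, the nuclear receptor that directs their development (log2 change 0.20 ± 0.31 SE, adjusted p = 0.7), Fabp4, a lipid chaperone (log2 change -0.50 ± 0.54 SE, adjusted p = 0.547), and Chil3 (log2 change 0.04 ± 0.44 SE, adjusted p = 0.965) did not pass, although Fabp4 did in the 6 libraries alone (adjusted p = 0.0251). When the 6 libraries were fitted alone, 19 of 32 rose and 7 fell, and with the block 19 rose and 6 fell. Within the 15 resident libraries 14 rose and 5 fell, and with the block over 27 libraries 2 fell. Without replicate 3 of day 3, 1 rose, without replicate 2 of day 3, 3 rose, and without any 1 library of day 6, 2 rose. The single fall was called only in the fit without replicate 3 of day 6 among those that left out 1 library.

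Of 17 alternative activation genes, Clec7a rose and 0 fell, both shares below the 11.2% higher and 13.3% lower over all genes. Clec7a, the beta-glucan receptor dectin-1, had 866, 1001 and 1124 CPM on day 0, 991, 672 and 735 CPM on day 3 and 2201, 1622 and 2001 CPM on day 6 (log2 change 1.28 ± 0.20 SE, adjusted p = 0.000107), and its day 6 level was above day 0 by 0.96 ± 0.20 (SE, adjusted p = 0.00522). Arg1, arginase 1, had 19.8, 8.59 and 47.9 CPM and then 2.92, 1.24 and 7.93 CPM, and did not pass (log2 change -2.66 ± 1.35 SE, adjusted p = 0.163). With the block within the 6 libraries 8 of the 17 rose and 4 fell, Arg1 among the 4 that fell (adjusted p = 3.43e-06). Of 26 pattern recognition genes, 6 rose, among them Tlr4, Tlr7 and Tlr8, and 6 fell, led by Clec4e, the receptor Mincle, from 248, 259 and 399 CPM to 63.7, 47.1 and 78.5 CPM (log2 change -2.26 ± 0.41 SE, adjusted p = 0.000467). Nod2, a cytosolic sensor of muramyl peptides, fell by 1.13 ± 0.19 (SE, adjusted p = 0.000192) on the log2 scale. With the block within 6 libraries 12 of the 26 fell. Of 26 lysosome genes, 3 rose, among them Laptm5 and Mcoln1, a share near that over all genes. Ctsz, a cathepsin, fell (log2 change -0.64 ± 0.18 SE, adjusted p = 0.013). Without any 1 library but replicate 1 of day 3, 1 of these genes rose, and with the block within 6 libraries 9 rose and 4 fell. The fall of Ctsz was lost without replicate 3 of day 3 (adjusted p = 0.0596) or replicate 2 of day 6 (adjusted p = 0.0616).

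Uptake of dead cells and repair gave rises and falls side by side, beside 11.2% of all genes higher and 13.3% lower. In both lists the share that fell was no higher than that over all genes. Of 22 efferocytosis and complement genes, 4 rose (C5ar1, Itgb5, Mertk, Pros1) and 2 fell (Itgam, Stab1). The 4 were 2 without replicate 3 of day 3 or replicate 2 of day 6 and 7 with the block within 6 libraries. Stab1, a scavenger receptor, changed by -2.53 ± 0.75 (SE, adjusted p = 0.0188), a call lost without replicate 1 or 3 of day 3 or replicate 2 or 3 of day 6 (adjusted p 0.0519 to 0.0905). Pros1, protein S, a bridging ligand of Mertk, had 202, 310.3 and 299.9 CPM on day 0, 153, 131 and 112 CPM on day 3 and 272, 302 and 291 CPM on day 6 (log2 change 1.13 ± 0.18 SE, adjusted p = 9.95e-05). Itgam, which encodes CD11b, the marker these cells were sorted to lack, had 10.3, 5.06 and 5.35 CPM on day 0, 352, 329 and 514 CPM on day 3 and 64.4, 21.5 and 53.4 CPM on day 6. Day 6 was apart from both other days, by -3.10 ± 0.54 (SE, adjusted p = 0.000371) from day 3 and 2.74 ± 0.55 (SE, adjusted p = 0.00478) from day 0. C1qa, a complement subunit and recruited macrophage marker, ranged from 0.978 to 8.77 CPM on day 6 and from 1.33 to 14.1 CPM on day 3, with replicate 2 lowest on both days (log2 change -0.34 ± 1.25 SE, adjusted p = 0.875). Of 26 repair and matrix genes, 7 rose and 3 fell. Fn1, fibronectin, named after its values were seen, had 1191, 1956 and 1417 CPM on day 0, 2582, 3637 and 3112 CPM on day 3 and 8066, 8430.2 and 8164 CPM on day 6 (log2 change 1.4 ± 0.33 SE, adjusted p = 0.00343), rising above the earlier days in all 3 libraries. Thbs1, thrombospondin 1, went from 49.4, 37.5 and 28.2 CPM to 5.91, 0.913 and 6.58 CPM (log2 change -3.10 ± 0.83 SE, adjusted p = 0.00999, lost without replicate 2 of day 6 at adjusted p = 0.0548), and Plau, urokinase, from 47.7, 29.9 and 42.6 CPM to 10.8, 9.58 and 9.54 CPM (log2 change -2.01 ± 0.46 SE, adjusted p = 0.00342). The 7 rises were 3 without replicate 3 of day 3, replicate 2 or replicate 3 of day 6, 4 without replicate 2 of day 3, and 12, with 6 falls, with the block within 6 libraries.

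Markers of monocytes and recruited macrophages did not move as 1 group. Of 20 tested in the resident libraries, 7 fell and 2, Apoe and Ccr2, rose. Ly6c2, a classical monocyte marker close in sequence to Ly6c1, had 0, 0 and 0.252 CPM on day 0, 54.6, 26.2 and 69.6 CPM on day 3 and 3.13, 1.37 and 4.64 CPM on day 6 (log2 change -4.04 ± 0.66 SE, adjusted p = 0.000204). Ccr2, the receptor for Ccl2, had 5.78, 9.27 and 9.00 CPM, 14.8, 8.43 and 7.81 CPM and 36.2, 21.3 and 30.3 CPM on the same days (log2 change 1.5 ± 0.45 SE, adjusted p = 0.0207). Both were picked after their values were seen. Ly6c2 was highest on day 3, while every day 6 library was above every day 0 and day 3 library in Ccr2.

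The same interval in recruited macrophages gave 4332 changed genes (31.9%), 2051 higher (15.1%) and 2281 lower (16.8%), from other libraries. The change itself differed between the populations in 1147 genes (8.43%), by the interaction test, 579 with a higher (4.26%) and 568 with a lower (4.18%) difference in resident cells. With library size alone as scaling, 311 of 1063 were on the higher side and the median over all genes moved by -0.12 log2. In 20 of 34 DNA replication genes, 9 of 21 nucleotide genes and 7 of 38 mitosis genes the resident change lay below the recruited one by that test, and in 0 above it. Mcm5 changed by -2.40 in resident and -0.71 in recruited cells, a difference of -1.69 ± 0.44 (SE, adjusted p = 0.0196). In recruited cells it had 19.9, 12.4 and 12.2 CPM on day 3 and 6.08, 9.1 and 12 CPM on day 6, so both days were below the resident libraries of day 3. The call was lost without resident day 6 replicate 2, at -1.50 (adjusted p = 0.0565), where 13 of the 34 replication genes differed, and without recruited day 3 replicate 2 (adjusted p = 0.0578) or 3 (adjusted p = 0.0579) or recruited day 6 replicate 3 (adjusted p = 0.0693), where 14 did in each. Exo1 changed by -2.80 and 0.0048 (difference -2.80 ± 0.64 SE, adjusted p = 0.00762), and Gnl3 by -0.87 and -0.04 (difference -0.83 ± 0.19 SE, adjusted p = 0.00796).

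Type I interferon genes gave the opposite picture. In recruited cells all 32 fell. By the interaction test the resident change lay above the recruited one in 20 of 32 and below it in 0, a count that rests in part on the high resident library of day 6 given above. Isg15 fell from 187, 277 and 213 CPM to 7.91, 4.27 and 6.44 CPM in recruited cells, a change of -5.17 against -2.82 in resident cells (difference 2.35 ± 0.68 SE, adjusted p = 0.0367), and Ifit3 changed by -4.21 against -1.62 (difference 2.58 ± 0.65 SE, adjusted p = 0.0164). Without resident day 6 replicate 1 the count was 11 of 32, the difference of Isg15 was 1.45 (adjusted p = 0.202) and that of Ifit3 1.52 (adjusted p = 0.101). Without recruited day 6 replicate 2 the count was 13, and without replicate 1 or 2 of resident day 3, replicate 2 or 3 of recruited day 3, or replicate 3 of recruited day 6 it was 14. The call of Isg15 was lost in 9 of the 12 fits that left out 1 of these libraries. Interferon gamma targets differed in 8 of 18 (1 without resident day 6 replicate 1, 3 without recruited day 3 replicate 2, 4 without resident day 3 replicate 1 or recruited day 6 replicate 3, 5 without recruited day 6 replicate 2) and MHC class I genes in 7 of 14, each with the resident change above the recruited one. Psme2 differed by 1.03 ± 0.21 (SE, adjusted p = 0.00276). Cytokines and chemokines differed in 4 of 25 (Il1rn with the resident change above the recruited one, and Ccl17, Ccl9 and Csf1 below it). Nos2 changed by -8.37 in resident and -7.58 in recruited cells (difference -0.79 ± 0.79 SE, adjusted p = 0.61), Cxcl10 by -6.34 and -7.16 (difference 0.81 ± 0.58 SE, adjusted p = 0.443), and neither difference passed, which does not show that they were equal. Recruited day 6 replicate 2 had 26.5% of reads outside genes, and 782 genes differed without it.

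**Figure D5:**
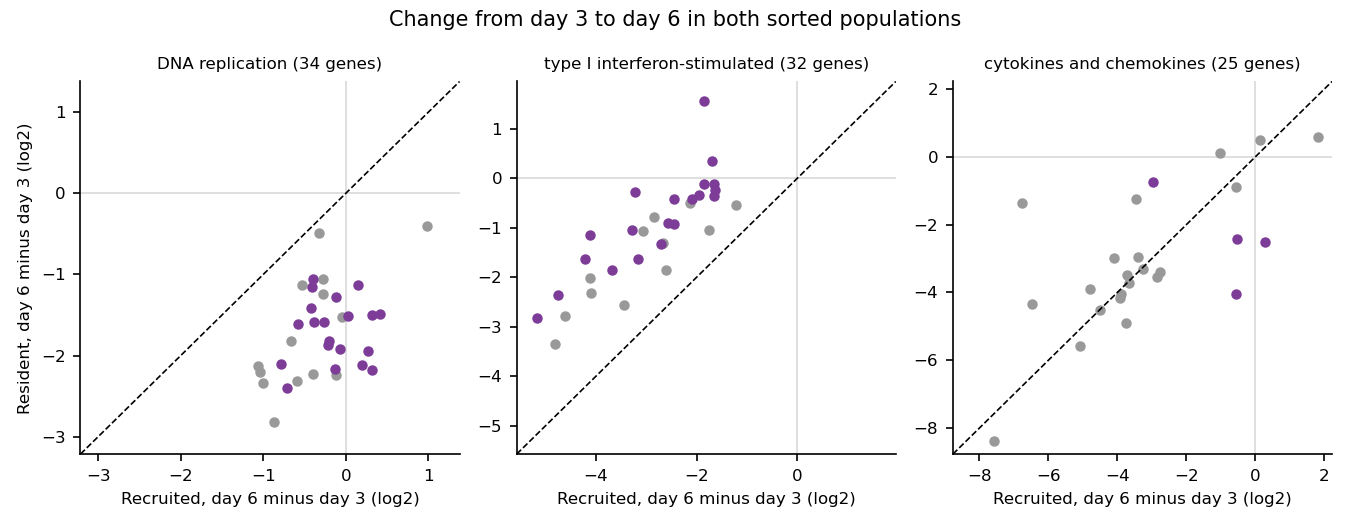
Change from day 3 to day 6 (log2) of each gene in recruited (x axis) and resident cells (y axis) for 3 lists; the dashed line marks equal change, purple points differ by the interaction test and grey points do not pass it. DNA replication genes lie below the line, type I interferon-stimulated genes above it, and 4 of 25 cytokine and chemokine genes are purple.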

How the data were processed

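RNA-seq read counts per gene were deposited as 1 table for 27 libraries of 9 groups, 3 per group. Per the submitters' processing notes, the tools were STAR 2.4.0a, HTSeq 0.6.0, DESeq2 1.4.5 and R 3.1.0 with genome build mm10; no annotation release or strand setting is named there, so antisense and overlapping genes cannot be separated. Reads assigned to no gene were kept out of library sizes and tests.

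From these counts, edgeR 4.0.16 (R 4.3.3, limma 3.58.1) was run with the filterByExpr filter (minimum count 10, minimum total 15) and TMM scaling. One quasi-likelihood model over all 27 libraries, with 1 term per group and 18 residual degrees of freedom, gave each comparison, and genes were called at an adjusted p (Benjamini-Hochberg) under 0.05. An exact permutation test of 3 against 3 libraries cannot go below p = 0.1. Depth was 11093216 to 18299674 counts per library, and intervals on counts cover counting error only. The calculation was tested on simulated data.

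The labels do not say what a replicate number stands for. In the resident day 3 and day 6 libraries, the correlation across genes of same-numbered libraries' deviations from their group means was 0.24, 0.26 and 0.11. The numbers may thus pair the samples, a reading from the data and not from the design. The main model holds no pairing, and the block was run as an alternative. In these 6 libraries replicates 1, 2 and 3 also had column header numbers in the runs 2-9, 19-28 and 34-53. Pairing and run thus cannot be told apart there. Over 27 libraries replicate and run differ, as in resident day 9, where replicate 2 was in run 12-18. Blocked values stand beside calls they change and list counts they move by over 1.5 times. Named genes are the 8 most raised and 8 most lowered called genes whose higher group averaged 20 CPM or more, up to 3 called genes per list by size (both without overlap between the days' libraries), and a fixed set. The other genes given with values (Ccr2, Cd8a, Fn1, Gzma, H2-K1, Idh2, Ifng, Il17a, Il22, Ly6c2, Retnlg, S100a8, S100a9) were chosen after their values were seen. A p-value printed for any of them gives no separate support. A few genes under this rule are not reported here. Members and lists were chosen with earlier results of these data known. Alternatives were other scaling, filters, tools, libraries in the fit, a block, a run term read from the number in the column headers, and leaving out each library of the groups compared (for day 0, day 9 and recruited libraries, chosen after seeing the data). Promoter windows are from RefSeq (GRCm38.p6), available for 9894 of the 13599 genes; gene coordinates are GENCODE M21 on GRCm38.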

Additional observations from a re-analysis of the deposited data

Results flagged for a closer look

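For 13 of the named genes the change from day 3 to day 6 differed between resident and recruited macrophages by the interaction test of edgeR. Values are the resident minus the recruited change on the log2 scale, with the adjusted p. The resident change lay below the recruited one for Mcm5 (-1.69, adjusted p = 0.0196), Exo1 (-2.80, adjusted p = 0.00762), Cp (-2.80, adjusted p = 0.00573), Srm (-0.93, adjusted p = 0.0156) and Gnl3 (-0.83, adjusted p = 0.00796). It also lay below for Itgam, the gene of the sort marker CD11b (-2.65, adjusted p = 0.025), and for Thbs1, which changed by -3.10 in resident and 0.63 in recruited cells (-3.74, adjusted p = 0.0379). Pros1 (-1.10, adjusted p = 0.00789) had higher fitted values on day 6 in both populations, with the larger difference in recruited cells.

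The resident change lay above the recruited one for the interferon-stimulated genes Isg15 (2.35, adjusted p = 0.0367) and Ifit3 (2.58, adjusted p = 0.0164), for the antigen presentation genes Psme2 (1.03, adjusted p = 0.00276) and Tap1 (0.90, adjusted p = 0.0183), and for Prdx6, a peroxiredoxin (0.77, adjusted p = 0.0296). In these 5 genes both populations fell.

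Most of these calls were lost in some of the 12 fits that left out 1 of the libraries compared; those that left out a recruited library were chosen after seeing the data. Cp, Gnl3, Pros1 and Psme2 were called in all 12. Exo1 was lost without recruited day 6 replicate 3 (-2.31, adjusted p = 0.052), Srm without recruited day 3 replicate 2 (-0.82, adjusted p = 0.0529), and Ifit3 without resident day 6 replicate 1 (1.52, adjusted p = 0.101), the highest day 6 library in interferon-stimulated genes. Thbs1 was lost in all 12 (adjusted p 0.0505 to 0.0962), with the replicate block over 27 libraries (adjusted p = 0.0521) and with no count filter (adjusted p = 0.0795).

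Isg15 was lost in 9 of the 12 (adjusted p up to 0.202, without resident day 6 replicate 1, where the difference was 1.45) and with no count filter (adjusted p = 0.0856), and was called without recruited day 3 replicate 1, resident day 3 replicate 3 or resident day 6 replicate 2. Prdx6 was lost in 7 (without recruited day 3 replicate 1 or 3, recruited day 6 replicate 1 or 2, resident day 3 replicate 2, and resident day 6 replicate 1 or 3; adjusted p up to 0.101) and with library size alone (adjusted p = 0.0569). Tap1 was lost in 4 (without recruited day 3 replicate 2, recruited day 6 replicate 3, resident day 3 replicate 2 and resident day 6 replicate 1; adjusted p up to 0.0765) and with library size alone (adjusted p = 0.07). Mcm5 was lost in 4 (without recruited day 3 replicate 2 or 3, recruited day 6 replicate 3 and resident day 6 replicate 2; adjusted p up to 0.0693). Itgam was lost in 4 (without recruited day 3 replicate 1 or 2, resident day 3 replicate 3 and resident day 6 replicate 2; adjusted p up to 0.0647) and with no count filter (adjusted p = 0.0552).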

How the results depend on the processing

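Of 107 named genes 94 were called, of which 66 kept call and direction in every alternative and 28 lost the call in at least 1. Of 1712 values of named genes under alternatives, 1584 stayed on their side of the threshold, 105 lost it, 19 passed it and 4 reversed: Chil3 (not called), which ranged from -0.035 to 0.18 with 1 library left out and was below 0 without day 3 replicate 1 or 3, and C1qa (not called), which ranged from -0.85 to 0.70 and was above 0 without day 3 replicate 1 or day 6 replicate 2. The cause was not tested. Day 6 against day 3 gave 5354 genes with the replicate block within 6 libraries (2506 higher, 2848 lower) and 3391 with the block over 27 libraries (1545 higher). The block changed the call of 2 named genes over 27 libraries and of 7 within 6. Leaving out 1 library gave 1948 to 2857 called, 734 to 1227 higher and 1214 to 1630 lower, the lowest total without day 3 replicate 3. Day 3 against day 0 gave 1895 to 3138 genes, the lowest also without day 3 replicate 3. Day 6 against day 0 gave 1333 within the 15 resident libraries, 1586 with the header number run as a term and 450 to 841 with 1 library left out (450 without day 0 replicate 1, and 465, 520 and 516 without day 6 replicate 1, 2 and 3). Day 9 against day 6 gave 1 with library size alone, 1 within the 15 libraries, 36 with the run term, 16 with DESeq2 1.42.0 and 0 to 1 with a library left out (1 without day 9 replicate 2). Recruited cells gave 3394 to 4275 with 1 library left out, and the difference between populations 777 to 1374 (lowest without recruited day 3 replicate 2, highest without recruited day 3 replicate 1) and 2062 with the run term. Leaving out day 0, day 9 or recruited libraries was chosen after seeing the data. With library size alone the higher share of calls went from 58.8% to 37.1% for day 6 against day 0 and from 50.5% to 29.3% for the difference between populations.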
